A study of Mus musculus with 7 samples.

Results

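The genes described here are 32 members of the lipid synthesis programme that sterol regulatory element-binding proteins (SREBPs) govern, among 53379 genes counted in mouse splenic natural killer (NK) cells. The members were given by gene symbol, not by a cut on their values, but with earlier results of these data known. All 32 were found in the count table. They comprise 8 genes from acetyl-CoA to squalene, 10 from squalene to cholesterol, 6 for SREBP regulation and sterol transport, and 8 for fatty acid synthesis and desaturation. NK cells were sorted ex vivo from spleens of C57BL/6 mice as CD45+ CD3- NK1.1+ NKp46+ CD49b+ cells. The genotypes were Hhex KO (4 libraries), labelled as a knockout of the homeobox factor Hhex, and Cre control (3 libraries). The labels give neither the promoter that drives Cre nor the age of the mice, and they speak of biological replicates without tying each library to a separate animal, so p-values cover only how far these libraries differ, which may be technical.

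SREBPs are membrane-bound transcription factors of the endoplasmic reticulum. When sterols are low, the escort protein SCAP carries them to the Golgi, where proteases release the active part. INSIG proteins hold the SCAP complex back when sterols are plentiful. The released factors act at genes of the mevalonate pathway, of cholesterol synthesis and of fatty acid synthesis, often together with the CCAAT-binding factor NF-Y. In lymphocytes the programme supplies membrane lipids, and in NK cells SREBP activity is known for its part in metabolic activation.

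To show where these factors could act, the bases just upstream of the start sites of 6 members are printed first. RefSeq promoter windows on GRCm38.p6 were matched by symbol for 25 of the 32 members, and 250 bases before each start were searched on both strands. The letters CCAAT lay in a window of 19 of the 25 members (76%), against 40.7% of the 9134 tested genes with a window and 33.8% of all 32851 windows. The SREBP element TCACNCCAC lay in a window of 1 of the 25 members, Hmgcs1 (4%), against 1.24% of the tested genes and 1.05% of all windows. The E-box CACGTG lay in a window of 5 members (20%), against 9.95% of the tested genes and 6.02% of all windows. A match is a description of the letters, not of binding, and a missing match says only that those letters are not in that window. The 6 sequences below are 150 bases long and end at the base before the start. They were chosen because they show the element of Hmgcs1 and the windows of members described below. Capitals mark the SREBP element, the E-box, and the CCAAT letters, which read ATTGG when they lie on the other strand.
Hmgcs1 (chr13:119690201-119690350, plus strand): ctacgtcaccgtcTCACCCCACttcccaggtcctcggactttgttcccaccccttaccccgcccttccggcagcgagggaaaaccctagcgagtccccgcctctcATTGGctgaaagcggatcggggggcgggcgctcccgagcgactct
Mvd (chr8:122443423-122443572, minus strand): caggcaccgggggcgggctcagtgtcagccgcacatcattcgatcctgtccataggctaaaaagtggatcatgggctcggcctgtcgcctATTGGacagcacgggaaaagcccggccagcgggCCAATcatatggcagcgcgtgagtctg
Idi1 (chr13:8885456-8885605, plus strand): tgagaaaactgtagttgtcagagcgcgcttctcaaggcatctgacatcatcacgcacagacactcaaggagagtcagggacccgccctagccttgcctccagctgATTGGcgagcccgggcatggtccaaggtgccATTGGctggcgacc
Cyp51 (chr5:4104698-4104847, minus strand): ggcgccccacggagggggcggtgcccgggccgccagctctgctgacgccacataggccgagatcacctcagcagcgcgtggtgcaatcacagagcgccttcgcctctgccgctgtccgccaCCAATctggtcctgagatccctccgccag
Sc5d (chr9:42264301-42264450, minus strand): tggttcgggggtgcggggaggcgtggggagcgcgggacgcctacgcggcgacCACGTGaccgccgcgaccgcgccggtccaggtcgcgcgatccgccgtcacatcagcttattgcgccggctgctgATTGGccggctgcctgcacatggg
Insig1 (chr5:28071262-28071411, plus strand): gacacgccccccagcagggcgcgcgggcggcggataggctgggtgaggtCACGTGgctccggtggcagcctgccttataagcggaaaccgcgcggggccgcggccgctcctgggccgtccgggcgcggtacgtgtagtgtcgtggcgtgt

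Total counts ranged from 10589915 to 18456404 per library. Hhex stood at 93.5 to 96.1 CPM (counts scaled to library size) in Cre control and at 54.2 to 64.8 CPM in Hhex KO, with a log2 fold change of -0.70 ± 0.10 (a fold of 0.614). Hhex message thus stayed in every Hhex KO library, at 732 to 987 counts. The labels do not say which part of the gene was deleted, and counts per gene do not show whether reads came from that part. Of the 8 NK cell markers none was below 1 CPM in all libraries, and their sum ranged between 13200 and 17600 CPM in the controls and between 10400 and 13900 CPM in the knockouts. The Hhex KO libraries fell into pairs: by a chi-square comparison of counts, replicates 2 and 3 differed by 10.4 per degree of freedom and replicates 1 and 4 by 25.9, while the other Hhex KO pairs differed by 62.8 to 71.5. The mean log2 CPM of the nuclear-retained RNAs Malat1, Neat1 and Kcnq1ot1 separated the same pairs, at 7.25 and 7.23 in replicates 1 and 4 and at 4.87 and 4.94 in replicates 2 and 3. Cre control lay between, at 6.46, 5.37 and 6.01. Replicate 4 also carries a distant sample number in the deposited table, 95 against 20 to 28 for the others.

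Levels between genes were compared per length, as CPM per kilobase of exon. By this measure the fatty acid arm held the most abundant members. Acly, which makes cytosolic acetyl-CoA from citrate, was at 90.9 ± 7.46 CPM per kb (SD, n = 3) in Cre control and at 88.1 ± 18.6 (SD, n = 4) in Hhex KO. Scd2, a desaturase that makes monounsaturated fatty acids, followed at 45.5 ± 1.82 and 41.7 ± 10.5 CPM per kb. Ebp, a sterol isomerase, and Fasn, the fatty acid synthase, came next, at 31.5 ± 4.56 and 25.5 ± 3.85 CPM per kb in Cre control, and their libraries overlapped. Over the 7 libraries Srebf1 had a mean of 19.6 CPM per kb and Srebf2 of 14.2, so both SREBP genes were read at levels above most enzymes they are known to act on. In the order of levels, neighbouring genes had library ranges that overlapped, except Acly above Scd2, Srebf1 above Srebf2 and Acat2 above Msmo1.

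**Figure D1:**
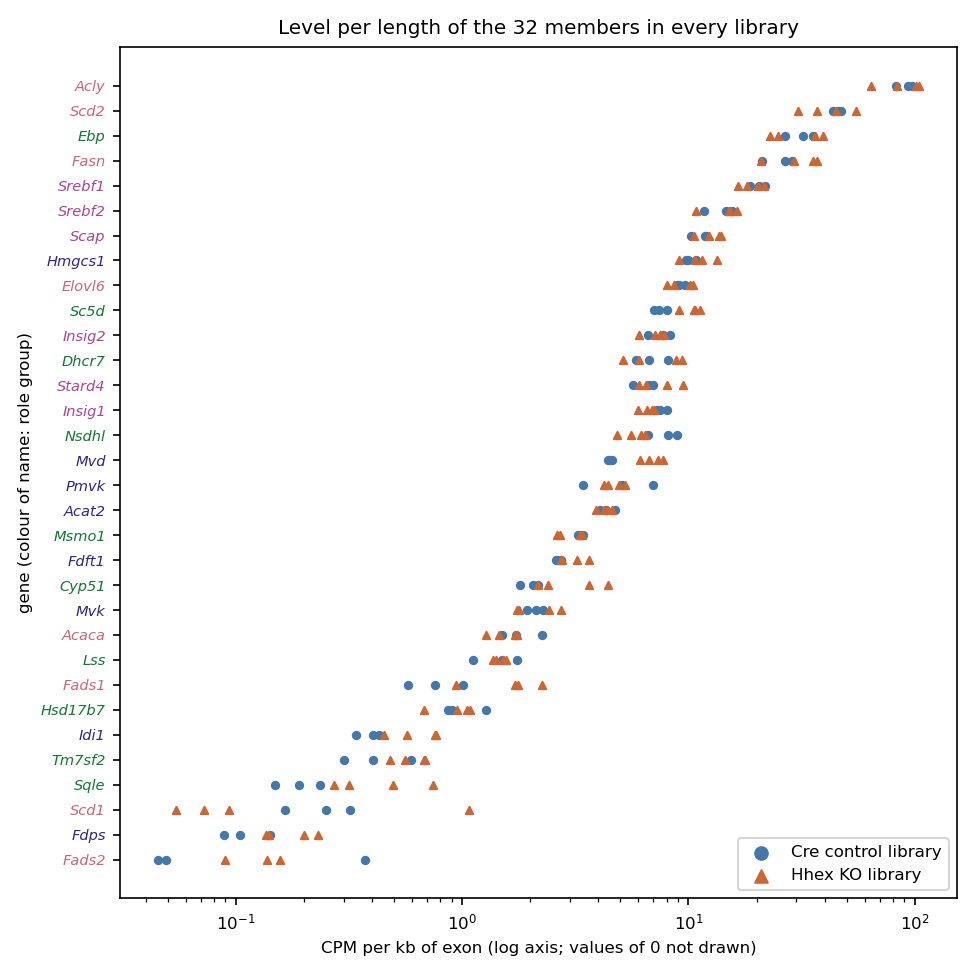
Level of each of the 32 members, in CPM per kb of exon on a log axis, with circles for the 3 Cre control libraries and triangles for the 4 Hhex KO libraries. Acly is highest, at a mean of 89.3 CPM per kb over the 7 libraries, and Fads2 and Fdps are lowest, at 0.122 and 0.149 CPM per kb.

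Among paralogues, Scd2 was read far above Scd1, whose mean was 0.290 CPM per kb over the 7 libraries. Of the desaturases that make polyunsaturated fatty acids, Fads1 was at 0.782 ± 0.215 CPM per kb in Cre control and Fads2 at 0.156 ± 0.189. Fads2 had 2, 14 and 3 counts in the controls, replicates 1 to 3. It had 7, 9, 5 and 0 counts in Hhex KO replicates 1 to 4. Fdps, the farnesyl diphosphate synthase, had 5, 5 and 11 counts in the controls and 13, 10, 10 and 11 counts in the knockouts. These 2 genes did not pass the filter on low counts, so 30 of the 32 members were tested. Idi1, the step just before Fdps, was also low, at a mean of 0.532 CPM per kb, while Mvd before it and Fdft1 after it were at 5.90 and 2.90 CPM per kb. Of the 75-base stretches in the coding transcripts of Fdps, 58.5% also occur, on either strand, in transcripts of other genes (5 genes, foremost Gm43738). The search did not tell copies elsewhere in the genome from transcripts that overlap the gene. The sources used here give neither the strand setting nor how reads with several matches were counted, which leaves the level of Fdps uncertain. The same holds for Acaca (44.2% shared, with Gm5182), Acat2 (35.6%, foremost Acat3), Idi1 (26.6%, foremost Gm13502), Fdft1 (25.4%, foremost Ctsb), Tm7sf2 (17.4%, with Vps51) and Hmgcs1 (11.2%, with Gm48342). For the other members the share was below that of Hmgcs1.

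The comparison of Hhex KO with Cre control asks how the Hhex knockout changes these genes in NK cells. With edgeR's quasi-likelihood test and Benjamini-Hochberg adjustment over 12161 genes, 0 of the 30 tested members passed an adjusted p of 0.05, against 4.56% of all genes tested (2.68% higher, 1.87% lower). At an unadjusted p under 0.05 there were 7 members, or 23.3%, against 18.5% of all genes. Of the 30 members, 6 were higher and 1 lower at this p, where 10.1% of all genes were higher and 8.45% lower. With other tools, DESeq2 called 3 of 30 (Fads1, Mvd and Sc5d, all higher, against 9.0% of genes, 5.14% as higher) and limma-voom called 0 (4.77%). Groups did not overlap in CPM for 6 of the 30 (20%), against 19.3% of all genes. Of these, 4 were higher in Hhex KO and 2 lower, where 9.37% and 9.98% of all genes were. With both directions together, these edgeR shares are near the background. By direction, the share higher at an unadjusted p under 0.05 was above that of all genes and the share lower was below it, from 7 members. A p that misses the threshold does not show that a gene was unchanged. The median log2 fold change was 0.05 over the 30 members and 0.02 over all genes, with 18 members above 0 and 12 below, where 52.7% of all genes were above 0. Adjusted p-values in the paragraphs that follow are from the same edgeR test. Each log2 fold change compares Hhex KO to Cre control, and ± gives its standard error.

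**Figure D2:**
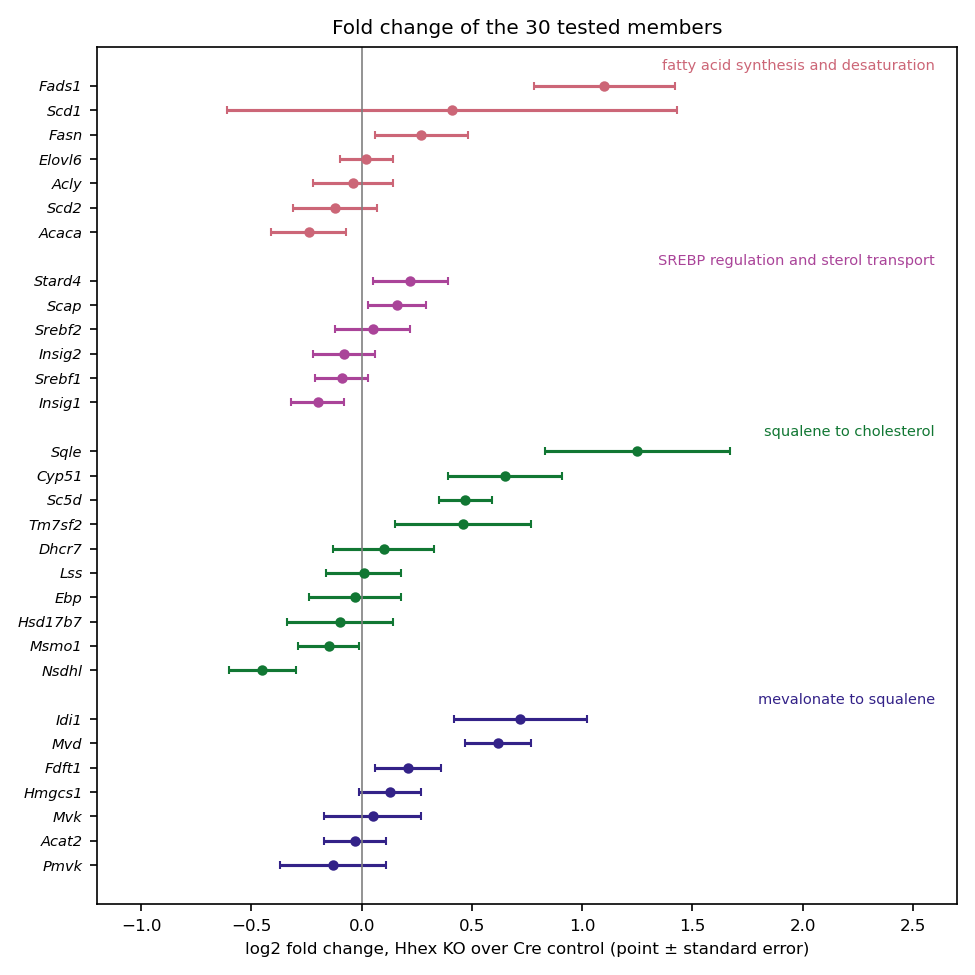
Log2 fold change of the 30 tested members, Hhex KO relative to Cre control (points, with bars of 1 standard error), by role group. The values run from -0.45 for Nsdhl to 1.25 for Sqle, and 18 of the 30 points lie above 0.

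In the mevalonate arm, which builds isoprenoid units from acetyl-CoA and joins them to squalene, 0 of 7 tested members passed, with a median log2 fold change of 0.13. Mvd (ENSMUSG00000006517.5, chromosome 8, 122433601 to 122443422), the decarboxylase that makes isopentenyl diphosphate, was at 8.24, 8.36 and 8.54 CPM in Cre control replicates 1, 2 and 3. It was at 11.3, 14.3, 13.6 and 12.5 CPM in Hhex KO replicates 1, 2, 3 and 4. Every Hhex KO library was above every Cre control library, and the 3 control values were nearly equal. Its log2 change was 0.62 ± 0.15 (adjusted p = 0.0513), just short of the threshold. Of its 18 alternative fits, 8 passed the threshold (adjusted p 0.00441 to 0.191 over all 18). The alternative fits counted here and below include 3 chosen after the libraries had been seen. These left out Hhex KO replicates 1 and 4, left out replicates 2 and 3, or had the nuclear-retained RNA level as covariate. Mvd passed in the first and the last of these, and the first favours higher members in advance. Mvd was also past 0.05 with DESeq2 (adjusted p = 0.00958) and without Hhex KO replicate 4 (0.0465), and not with limma-voom (0.0537).

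Idi1 (chromosome 13, 8885501 to 8892451), which converts isopentenyl to dimethylallyl diphosphate, was at 1.42, 1.5 and 1.19 CPM in Cre control. In Hhex KO it was at 2.01, 2.69, 2.65 and 1.59 CPM. The groups did not overlap, but with 17 to 47 counts per library the level is imprecise. Its log2 fold change was 0.72 ± 0.30 (adjusted p = 0.245). Hmgcs1, which makes the precursor HMG-CoA, ranged from 44.9 to 49.4 CPM in Cre control and from 41.6 to 61.4 CPM in Hhex KO, with a log2 fold change of 0.13 ± 0.14. The kinases Mvk and Pmvk stood at 0.05 ± 0.22 and -0.13 ± 0.24, the squalene synthase gene Fdft1 at 0.21 ± 0.15 and the thiolase gene Acat2 at -0.03 ± 0.14 on the log2 scale. For these 5 genes the groups overlapped.

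Between squalene and cholesterol, 0 of 10 members passed, and their log2 fold changes spread from -0.45 to 1.25 with a median of 0.05. Sc5d (ENSMUSG00000032018.14, chromosome 9, 42251595 to 42264256), a late sterol desaturase, was at 34.2, 39.3 and 36.0 CPM in Cre control. It was at 44.4, 54.8, 52.0 and 51.5 CPM in Hhex KO, all above the controls. The log2 fold change of Sc5d was 0.47 ± 0.12 (adjusted p = 0.0555), and 6 of its 18 alternative fits passed 0.05 (adjusted p 0.00441 to 0.230). These included DESeq2 (0.00752) and the fit without Hhex KO replicate 1 (0.0413). They also included the fit without Hhex KO replicates 1 and 4 and the covariate fit, both chosen after the libraries had been seen. Sqle (ENSMUSG00000022351.14, chromosome 15, 59315077 to 59331192) encodes squalene epoxidase, a rate-limiting step. It was at 0.824, 1.06 and 1.30 CPM in Cre control and at 1.75, 2.75, 4.12 and 1.51 CPM in Hhex KO. The groups did not overlap, and the highest value was that of Hhex KO replicate 3, from 70 counts. For Sqle this gave a log2 change of 1.25 ± 0.42 (adjusted p = 0.142), and 0.92 without Hhex KO replicate 3.

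Cyp51, the lanosterol demethylase, was at 7.94 to 9.56 CPM in Cre control. It was at 9.52 and 10.6 CPM in Hhex KO replicates 1 and 4, and at 16.0 and 19.4 CPM in replicates 2 and 3. Replicate 1 lay within the control range and the latter pair was highest. Its log2 change was 0.65 ± 0.26, with an adjusted p of 0.222. Nsdhl, a sterol dehydrogenase, was the member with the lowest fold change, at 23.1, 25.3 and 18.9 CPM in Cre control and at 15.9, 17.6, 18.3 and 13.8 CPM in Hhex KO. Its groups did not overlap; the log2 change was -0.45 ± 0.15 (adjusted p = 0.155). The other 6 members of this arm had groups that overlapped. Their log2 fold changes were 0.46 ± 0.31 for the sterol reductase gene Tm7sf2, 0.10 ± 0.23 for Dhcr7, which reduces the last double bond, 0.01 ± 0.17 for the lanosterol synthase gene Lss, -0.03 ± 0.21 for Ebp, -0.10 ± 0.24 for the ketosteroid reductase gene Hsd17b7 and -0.15 ± 0.14 for the methylsterol oxidase gene Msmo1. Fold changes of either sign thus occurred along the arm, but of the negative ones only that of Nsdhl lay well beyond its standard error.

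**Figure D3:**
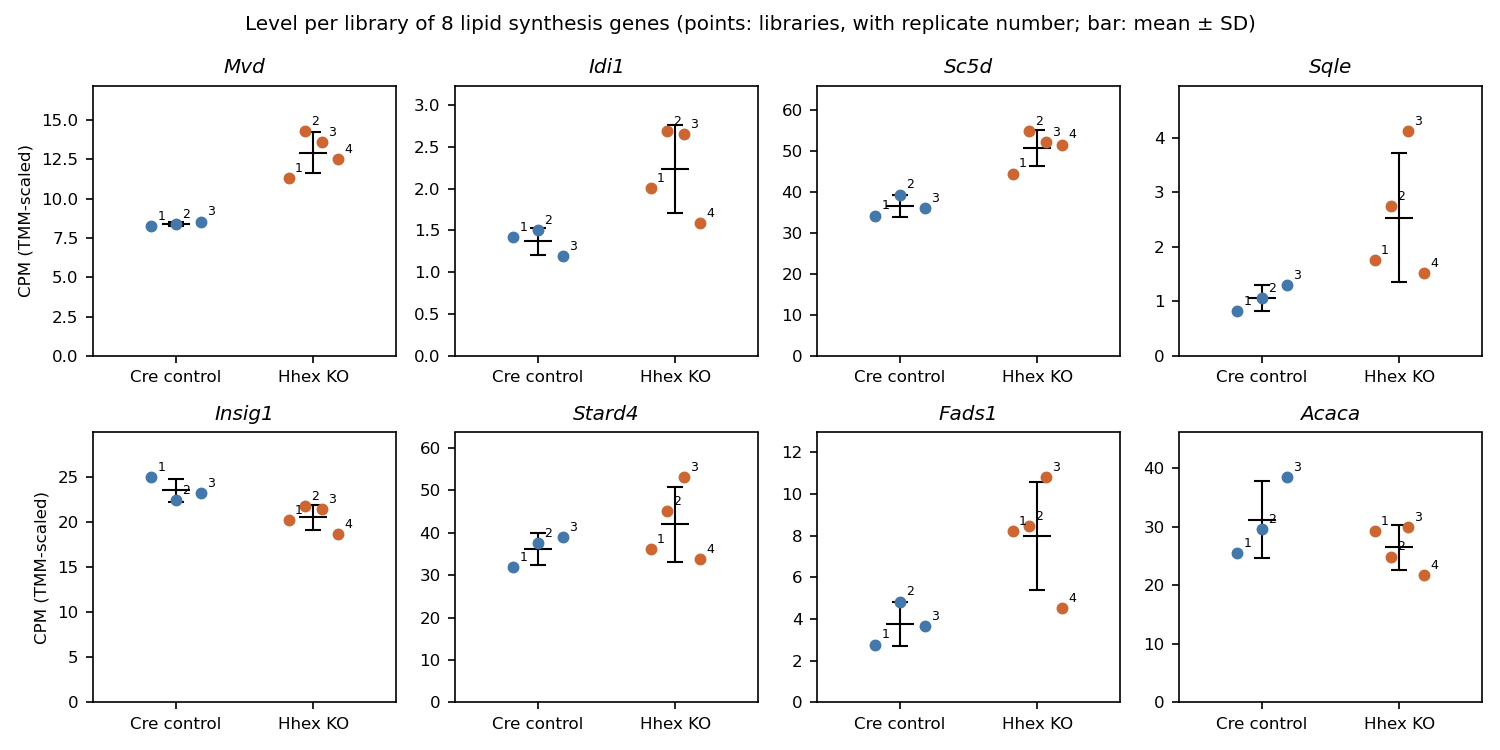
CPM in each library (points, numbered by replicate) with the mean ± SD of each group, for the 2 members with the smallest p in each of the 4 role groups. Mvd, Idi1, Sc5d and Sqle have every Hhex KO point above the controls and Insig1 every Hhex KO point below them, while Stard4, Fads1 and Acaca overlap.

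Among the regulators, 0 of 6 passed and all had log2 fold changes between -0.20 and 0.22. The SREBP genes themselves differed little: Srebf1 averaged 114 ± 9.12 CPM in the 3 controls and 108 ± 12.5 CPM in the 4 Hhex KO libraries (± SD), a log2 change of -0.09 ± 0.12. Srebf2, the isoform best known for sterol genes, averaged 100 ± 14.2 and 104 ± 17.7 CPM, a log2 change of 0.05 ± 0.17. The escort gene Scap stood at 0.16 ± 0.13 on the log2 scale. These counts measure the messages, not the cleavage by which SREBPs are activated. Insig1 (chromosome 5, 28071363 to 28078662), a retention factor that is itself an SREBP target, was at 24.9, 22.4 and 23.2 CPM in Cre control. In Hhex KO it was at 20.2, 21.7, 21.4 and 18.6 CPM. All 4 Hhex KO libraries lay below the controls, by a small margin, and the log2 fold change of Insig1 was -0.20 ± 0.12 (adjusted p = 0.422). Its relative Insig2 stood at -0.08 ± 0.14. Stard4, a carrier of cholesterol between membranes and also an SREBP target, was at 31.8, 37.5 and 39.0 CPM in Cre control. It was at 36.1, 45.1, 53.0 and 33.7 CPM in Hhex KO, so the groups overlapped (log2 change 0.22 ± 0.17, adjusted p = 0.583).

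In the fatty acid arm 0 of 7 tested members passed. Fads1 (ENSMUSG00000010663.4, chromosome 19, 10182888 to 10196877), a front-end desaturase of polyunsaturated fatty acids, was at 2.77, 4.84 and 3.67 CPM in Cre control. It was at 8.22, 8.48, 10.8 and 4.52 CPM in Hhex KO. Replicates 1, 2 and 3 of Hhex KO were above all controls, and replicate 4 lay within their range. Its log2 change was 1.10 ± 0.32 (adjusted p = 0.0961). It passed 0.05 in 7 of 17 alternative fits (adjusted p 0.00399 to 0.337), among them DESeq2 (0.0227) and the fit without Hhex KO replicate 4 (0.0230). Also among them were the fit without Hhex KO replicates 1 and 4 and the covariate fit, both chosen after the libraries had been seen. Fads1 shared no 75-base stretch with another gene.

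Acaca, the acetyl-CoA carboxylase that commits carbon to fatty acids, was at 25.5, 29.6 and 38.4 CPM in Cre control and at 29.3, 24.9, 29.9 and 21.7 CPM in Hhex KO. The groups overlapped, and the log2 fold change of Acaca was -0.24 ± 0.17 (adjusted p = 0.547). Fasn ranged from 232 to 313 CPM in Cre control and from 228 to 403 CPM in Hhex KO, with a log2 fold change of 0.27 ± 0.21. Acly (-0.04 ± 0.18), Scd2 (-0.12 ± 0.19) and the elongase gene Elovl6 (0.02 ± 0.12) had log2 fold changes smaller than their standard errors. Scd1 was at 1.57, 1.23 and 0.811 CPM in Cre control, at 5.25 CPM in Hhex KO replicate 1, and at 0.458, 0.353 and 0.266 CPM in replicates 2, 3 and 4. Hhex KO replicate 1 alone was above the controls and the other Hhex KO libraries were below them, so the log2 fold change of 0.41 ± 1.02 turned to -1.69 without replicate 1 (adjusted p = 0.0844).

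Across libraries, the members varied with the division of the Hhex KO libraries. Hhex KO replicates 2 and 3 were both above replicates 1 and 4 for 25 of the 30 members (83.3%), against 36.4% of all genes tested. They were both below for 2 members, against 31.2% of all genes. Some other lists did the same: replicates 2 and 3 were both above for 14 of 16 genes of fatty acid supply (87.5%) and 18 of 22 of proliferation (81.8%). So it was for 13 of 18 of fatty acid oxidation (72.2%) and 9 of 13 of SREBP proteolysis and degradation (69.2%). The share was lower for glycerolipid synthesis (6 of 11, 54.5%), cholesterol efflux and LXR (8 of 16, 50%), mTORC1 control (5 of 11, 45.5%) and the isoprenoid branch (6 of 14, 42.9%). Replicates 2 and 3 were both above for 61 of the 98 tested neighbouring genes (62.2%). Among the members, both were above for 14 of 16 tested sterol enzymes, all 6 regulators and 4 of 7 fatty acid genes. In Cre control, replicate 2 was above replicate 1 for 25 of the 30 members (83.3%), against 49.7% of all genes. The same held for 22 of 22 proliferation genes (100%), 16 of 18 oxidation genes (88.9%) and 13 of 16 supply genes (81.2%). It held for 63 of the 98 tested neighbouring genes (64.3%), and least often for glycerolipid synthesis (4 of 11, 36.4%) and the isoprenoid branch (7 of 14, 50%). Among the controls, the proliferation genes were on average lowest in replicate 1 and highest in replicate 2. Replicate 2 was the control with the lowest level of nuclear-retained RNA and replicate 1 the one with the highest, so in both groups more members were higher where these RNAs were lower. Their part in the levels was not tested. The mean deviation of the 16 sterol enzymes from their own 7-library mean was 0.24 and 0.33 log2 units in Hhex KO replicates 2 and 3 and -0.07 and -0.12 in replicates 1 and 4, and it was below 0 in each control (-0.18, -0.06 and -0.14).

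**Figure D4:**
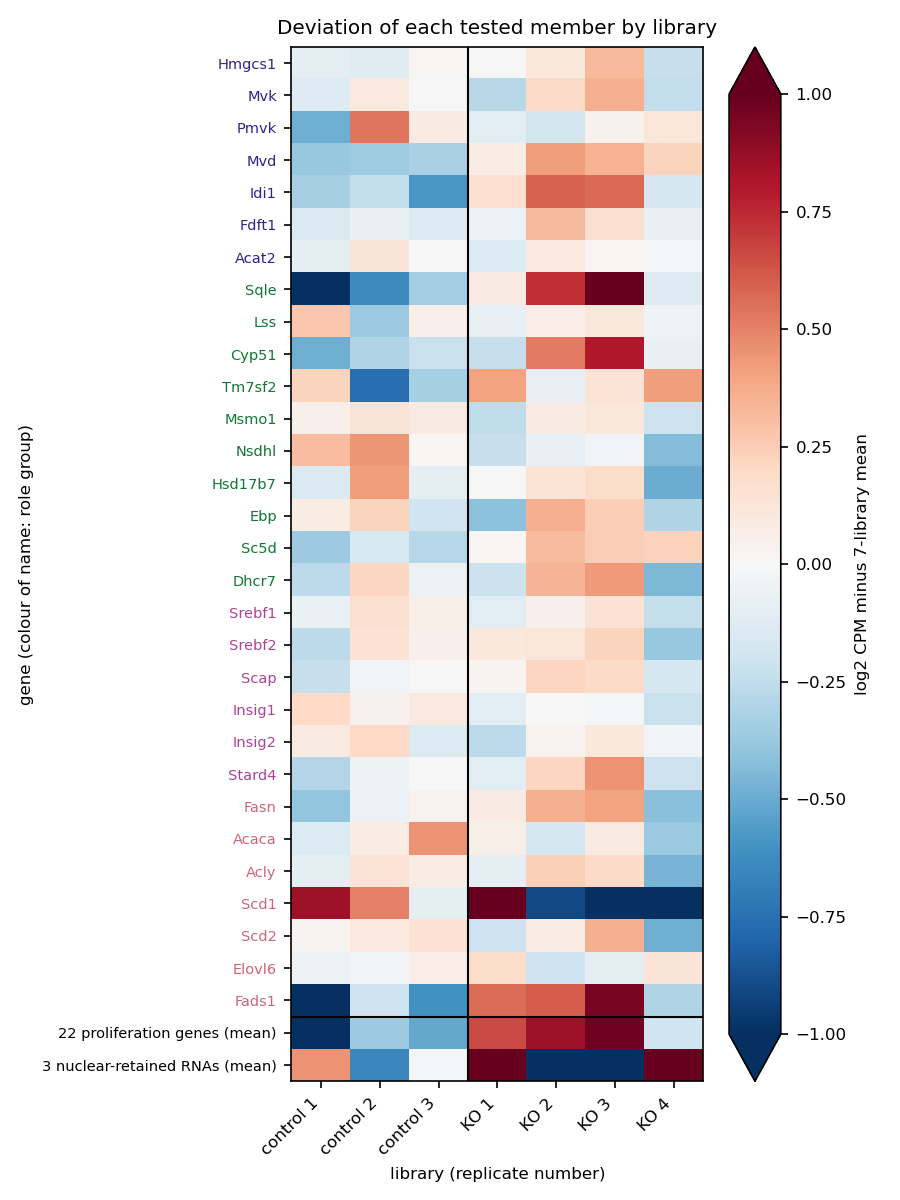
Log2 CPM of each tested member minus its mean over the 7 libraries, in colour (shades stop at -1 and 1), with the mean of 22 proliferation genes and of 3 nuclear-retained RNAs in the bottom rows. Among the members, Sqle, Cyp51, Idi1 and Fads1 have the strongest red in Hhex KO replicates 2 and 3. In these 2 libraries the proliferation row is also red (0.85 and 0.97) and the row of nuclear-retained RNAs is blue (-1.14 and -1.08).

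Which members passed depended on these libraries. Without Hhex KO replicates 1 and 4, 9 members passed as higher (Cyp51, Dhcr7, Fads1, Fasn, Idi1, Mvd, Sc5d, Sqle and Stard4) and Scd1 as lower. That is 32.3% of 31 tested members, against 28.3% of all genes in that fit. By direction, 29.0% of members were higher and 3.23% lower, against 14.0% and 14.3% of all genes. Replicates 2 and 3 were above replicates 1 and 4 for most members. Keeping only replicates 2 and 3 thus favours higher members in advance, and the excess in this direction is no support for a change. Without replicates 2 and 3, 0 of 31 members passed in the same edgeR test, against 7.21% of all genes. The log2 fold change of Cyp51 was 0.98 in the first fit and 0.19 in the second, and that of Dhcr7 was 0.40 and -0.29. Those of Sc5d were 0.54 and 0.40, and those of Mvd 0.72 and 0.51, which moved less than those of Cyp51 and Dhcr7. When the fit included the nuclear-retained RNA level as covariate, 5 members passed as higher (Cyp51, Fads1, Mvd, Sc5d and Sqle) and Nsdhl as lower, or 20% of 30, against 18.2% of all genes. By direction, 16.7% of members were higher and 3.33% lower, against 9.62% and 8.63% of all genes. These 3 fits were chosen after the libraries had been seen.

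In the other fits every member past 0.05 was higher, and the share of all genes past 0.05 is given with the share higher. RLE scaling called Mvd (4.69%, 2.71% higher), as did upper-quartile scaling (4.5%, 2.77% higher). The fit with no filter called Fads1 (2.64%, 1.66% higher), and a stricter filter called Mvd and Sc5d (4.28%, 2.16% higher). The fit with the replicate number as a block called Fads1 and Sqle (6.38%, 4.11% higher). Quality weights in limma-voom called Cyp51, Fads1, Idi1, Mvd, Sc5d and Sqle, or 20% of 30 (23.5%, 12.6% higher). Without Hhex KO replicate 1 the member past 0.05 was Sc5d (3.55%, 1.93% higher), and without replicate 4 there were Fads1 and Mvd (6.75%, 4.35% higher). Without replicate 2 or 3 there were 0 (3.15% and 2.48% of all genes), and without Cre control replicate 1, 2 or 3 there were 0 (1.12%, 1.87% and 1.23%).

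Proliferation genes moved with part of this pattern. The 22 genes deviated on average by -1.42, -0.36 and -0.51 log2 units in the controls, replicates 1 to 3. In Hhex KO replicates 1 to 4 the averages were 0.66, 0.85, 0.97 and -0.20. The log2 fold change was above 0 for 22 of 22 (median 1.56), against 52.7% of all genes. Of the 22, 6 passed as higher and 0 as lower, against 2.68% and 1.87% of all genes. Hhex KO replicate 1 was high for these genes but not for the sterol enzymes. The part of proliferation in the members' levels was not tested. Markers of T cells, which the CD3- sort should remove, followed part of the pattern too. The sum of 6 markers was 53.8 to 81.0 CPM in the controls, 145 and 126 CPM in Hhex KO replicates 2 and 3, and 103 and 75.9 CPM in replicates 1 and 4. Most of it was Cd3d, Cd3e, Cd3g and Trac, whereas Cd8a stayed under 0.46 CPM and Cd4 was at 0.0749 to 2.91 CPM. Cd4 and Cd8a did not pass the filter on low counts, none of the other 4 passed 0.05, and the part of T cells in the members' levels was not tested. Other markers were low beside those of NK cells: the summed level of 6 B cell markers was 2.54 to 5.40 CPM in the controls against 4.69 to 41.3 CPM in the knockouts, and 35.9 to 123 against 7.09 to 244 CPM for 8 monocyte and macrophage markers. For 5 neutrophil markers it was 13.6 to 34.9 against 10.5 to 293 CPM, and for 3 platelet markers 16.9 to 30.7 against 4.87 to 16.7 CPM, without overlap. The B cell marker Cd79b passed as higher (adjusted p = 0.0292). Hhex KO replicate 1 held the most B cell marker reads and replicate 2 the most monocyte and neutrophil marker reads. The part of these cells in the members' levels was not tested. In bulk RNA, fewer cells with a message and less message per cell cannot be told apart.

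Genes around the members were read from lists of neighbouring steps. Over these lists, 3 of 98 tested genes passed as higher and 0 as lower, against 2.68% and 1.87% of all genes. Of 13 genes for SREBP proteolysis and sterol-regulated degradation, 0 passed, with a median log2 fold change of 0.04. Rnf139, a sterol-sensing ubiquitin ligase of the endoplasmic reticulum, ranged between 90.4 and 97.3 CPM in the controls, and between 63.5 and 74.0 CPM in the knockouts. Its groups did not overlap, and its log2 fold change was -0.43 ± 0.10 (adjusted p = 0.0539, and 0.00240 to 0.204 over 18 alternative fits, of which 7 passed). Tmem97, a sterol-responsive membrane protein gene, stood at 0.61 ± 0.26 (adjusted p = 0.253). The proteases that cleave SREBPs, Mbtps1 and Mbtps2, had log2 fold changes of 0.12 ± 0.11 and 0.07 ± 0.12.

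Of 14 genes of the isoprenoid branch and prenylation, 1 passed as higher and 0 as lower, against 2.68% and 1.87% of all genes. Their median log2 fold change was 0.12. The higher gene was Coq2 (chromosome 5, 100654723 to 100675140), the prenyltransferase of coenzyme Q synthesis, which draws on the same isoprenoid precursors. It was at 19.2, 17.2 and 15.5 CPM in Cre control and at 28.2, 24.6, 25.2 and 29.0 CPM in Hhex KO. All Hhex KO libraries were above the controls, and replicates 1 and 4 were the highest. Its log2 change was 0.63 ± 0.13 (adjusted p = 0.0319), and it was past 0.05 in 12 of 18 alternative fits. The call was lost without any 1 control library (adjusted p 0.0866 to 0.158) and without Hhex KO replicate 1, 2 or 3 (0.0517 to 0.0664).

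A further list was drawn up for cholesterol efflux, esterification and the LXR receptors, and it also holds genes of other steps, such as Lbr. The LXR receptors act when sterols are plentiful. Of the 16 tested genes of this list, 1 was called higher and 0 lower. The shares over all genes were 2.68% and 1.87%, and the median log2 fold change of the list was -0.07. Osbpl1a, an oxysterol-binding protein gene, rose from a mean of 2.94 CPM (SD 0.450, n = 3) to a mean of 6.38 CPM (SD 0.965, n = 4). Its libraries were at 3.30, 3.08 and 2.43 CPM in Cre control and at 5.31, 6.53, 6.07 and 7.62 CPM in Hhex KO, without overlap. Its log2 fold change was 1.12 ± 0.22 (adjusted p = 0.0254). The call was lost with the replicate block (adjusted p = 0.0524), without any 1 control library (0.0851 to 0.130) and without Hhex KO replicate 2 or 3 (0.0573 and 0.0607). Soat1, which esterifies cholesterol, was at 31.6 to 37.6 CPM in the controls and, without overlap, at 24.8 to 31.0 CPM in the knockouts, a log2 change of -0.33 ± 0.12 (adjusted p = 0.188). The LXR targets Abca1, a cholesterol exporter, and Abcg1 had log2 fold changes of -0.42 ± 0.18 (adjusted p = 0.260) and -0.11 ± 0.15.

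Of 16 tested genes for supply, elongation and activation of fatty acids, 0 passed, with a median log2 fold change of -0.08. Acsl4, which activates polyunsaturated fatty acids to their CoA esters, ranged between 71.9 and 82.0 CPM in the controls; the Hhex KO libraries lay above, between 92.8 and 108 CPM. Its log2 fold change was 0.37 ± 0.11 (adjusted p = 0.0951). Scd4, a further desaturase, was at 1.5 to 2.02 CPM in the controls and, without overlap, at 0.530 to 1.06 CPM in the knockouts, a log2 change of -1.15 ± 0.34 (adjusted p = 0.100). The kinase complex mTORC1 is known to promote SREBP activity. Of 11 genes listed for mTORC1 and its upstream control, 1 passed as higher and 0 as lower, against 2.68% and 1.87% of all genes. The list was not restricted to genes that promote mTORC1. The gene past the threshold was Myc, while Mtor and Rptor were not (adjusted p = 0.764 and 0.584). Myc, a growth-promoting transcription factor, was at 44.5, 49.7 and 56.1 CPM in Cre control and at 72.3, 72.3, 85.8 and 65.9 CPM in Hhex KO, a log2 change of 0.56 ± 0.13 (adjusted p = 0.0481). The call of Myc was lost without any 1 control library (adjusted p 0.0990 to 0.216), without Hhex KO replicate 1, 2 or 3 (0.0785 to 0.107) and without Hhex KO replicates 2 and 3 together (0.0640).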

How the data were processed

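Per the submitters' processing notes, the authors used STAR, featureCounts and the mm10 build. For versions, annotation and strand setting, the sources used here give nothing. The authors deposited raw counts per gene, 1 column per library, and 0 columns were left unused. Of the gene identifiers, 99.8% matched a symbol without their version. Coordinates and union exon lengths are from GENCODE M21 (GRCm38). Counts were tested with edgeR 4.0.16 in R 4.3.3: expression filter (minimum count 10, minimum total 15), TMM scaling, robust quasi-likelihood F test, no covariate, Benjamini-Hochberg adjustment, threshold 0.05. The procedure was tested on simulated data. Standard errors were taken as the log2 fold change over the root of F. CPM values were computed on TMM-scaled library sizes. No replicate pair was within sampling noise. Alternatives were other scalings and filters, limma-voom from limma 3.58.1 (also with quality weights), DESeq2 1.42.0, a replicate block, and left-out libraries. Named were members past 0.05 and the 2 with the smallest p in each role group, and in each neighbouring list the genes past 0.05 or, with none, the 2 with the smallest p; Soat1, Cyp51, Nsdhl, Scd1, Srebf1, Srebf2, Mbtps1, Mbtps2, Abca1 and Abcg1 were added after values were seen. The members and lists were chosen with earlier results of these data known.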

Additional observations from a re-analysis of the deposited data

Results flagged for a closer look

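Of 42 genes examined, 1 had a Hhex KO library far from the other 3: Scd1, at 5.25 CPM (81 counts) in replicate 1. The gap to the next library was 0.961 of the whole range, above Dixon's critical value for 4 samples; chance alone puts about 1 in 20 groups above it. The same library held 41.3 CPM of B cell markers, while Hhex KO replicates 2 to 4 held 4.69 to 10.5 CPM; its part in the Scd1 value was not tested.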

How the results depend on the processing

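Leaving out 1 library at a time gave 91 to 527 higher and 50 to 291 lower genes, against 326 and 228, and 0 to 2 higher and 0 lower members, against 0 and 0. The members called higher numbered 1 with RLE scaling, upper-quartile scaling and no filter, 2 with the stricter filter (10 CPM or more in 3 or more libraries; 186 higher genes), 3 with DESeq2 (625 higher and 469 lower genes) and 6 with quality weights (1534 and 1325). Without Hhex KO replicates 1 and 4, 9 members were higher and 1 lower (1754 and 1790 genes). Without replicates 2 and 3, 548 genes were higher. The nuclear-RNA covariate gave 5 and 1 members (1170 and 1049 genes). The replicate block on libraries 1 to 3 gave 499 higher genes and 2 higher members, Fads1 and Sqle. Same-numbered libraries correlated at 0.15, 0.57 and -0.08 in their deviations, so the numbers were not taken to pair them. Among Hhex KO 1 to 3, control replicates 1 and 2 correlated best with their own number and control replicate 3 did not. The cause of these shifts was not tested.

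Log2 fold changes that turned sign, none past 0.05 except Scd1 without Hhex KO replicates 1 and 4 (adjusted p = 0.0446), were as follows. With limma-voom, Scd1 was at -0.62. With quality weights, the values were Acat2 0.02, Hsd17b7 0.07, Ebp 0.20, Insig2 0.01, Acly 0.10, Scd1 -1.10, Scd2 0.03 and Elovl6 -0.11. With the replicate block they were Hsd17b7 0.04, Ebp 0.03, Acly 0.07 and Elovl6 -0.04. Without Hhex KO replicates 1 and 4 they were Acat2 0.03, Hsd17b7 0.07, Ebp 0.25, Srebf1 0.03, Insig2 0.01, Acly 0.16, Scd1 -1.54, Scd2 0.12 and Elovl6 -0.16. Without replicates 2 and 3 they were Hmgcs1 -0.04, Mvk -0.25, Lss -0.06, Dhcr7 -0.29, Srebf2 -0.10, Stard4 -0.05 and Fasn -0.01. With the covariate they were Scd1 -0.19 and Elovl6 -0.01. Leaving out 1 library, the ranges were -0.08 to 0.03 for Acat2, -0.13 to 0.08 for Acly, -0.04 to 0.23 for Dhcr7, -0.17 to 0.08 for Ebp, -0.05 to 0.08 for Elovl6, -0.20 to 0.10 for Hsd17b7, -0.15 to 0.15 for Lss, -0.08 to 0.13 for Mvk, -0.35 to 0.14 for Pmvk, -1.69 to 0.76 for Scd1 and -0.07 to 0.16 for Srebf2. The low counts of Idi1, Sqle, Scd1, Fads2 and Fdps limit their precision.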

Other observations

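Genes that burn fatty acids or build them into membrane lipids were also read. Of 18 tested genes of fatty acid oxidation, 0 passed an adjusted p of 0.05 (edgeR's quasi-likelihood test; 0 at an unadjusted p under 0.05), with log2 fold changes of -0.25 to 0.31. Hadh stood at 0.31 ± 0.16 and Eci2 at -0.25 ± 0.13 (both adjusted p = 0.343). Of 11 genes of glycerolipid synthesis, 0 passed (1 at an unadjusted p under 0.05). Lpin1, which makes diacylglycerol and also acts in the nucleus, ranged between 313 and 322 CPM in the controls; the Hhex KO libraries lay below, between 230 and 286 CPM (log2 change -0.27 ± 0.12, adjusted p = 0.257). Pcyt1a, of phosphatidylcholine synthesis, stood at 0.27 ± 0.15 (adjusted p = 0.389).

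Lbr, singled out after its values were seen, encodes the lamin B receptor, which shares its sterol reductase activity with Tm7sf2. It was at 98.4 ± 0.206 CPM per kb (SD, n = 3) in Cre control, against 0.433 ± 0.150 CPM per kb for Tm7sf2, so Lbr was read far above Tm7sf2. The log2 fold change of Lbr was 0.06 ± 0.17.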
